A study of Homo sapiens with 12 samples.

Results

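The liver X receptors (LXR) and the sterol efflux genes they control were followed in 2 human multiple myeloma cell lines after exposure to IT848. The set comprised 7 of the 25680 gene symbols in the tables: the receptor genes NR1H2, NR1H3 and RXRA, the transporter genes ABCA1 and ABCG1, the ubiquitin ligase gene MYLIP and the transcription factor gene SREBF1. The genes were chosen by name, and the set was chosen from these data because ABCG1 fell in MM.1S. The response of the members in MM.1S is therefore given as a description, without p-values, and the count of members past the threshold there stands only beside the share of all genes. U266 is a plasma cell line from an IgE myeloma, and the MM.1S line was derived from an IgA myeloma and is sensitive to glucocorticoids. Each line was kept for 6 h in the solvent DMSO or in 6 µM IT848, which the labels call an NF-kB inhibitor, and each of the 4 groups held 3 RNA sequencing libraries, 12 in all. The medium of all groups was RPMI with bovine serum. Whether replicates were separate cultures is not said in the labels, and p-values therefore measure the spread between libraries only.

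LXRs are nuclear receptors that sense oxysterols, the oxidized forms of cholesterol, and bind DNA as pairs with a retinoid X receptor (RXR). Without ligand the pair represses its targets through corepressors, and with ligand it recruits coactivators. The best known targets export cholesterol through ABCA1 and ABCG1, limit lipoprotein uptake through the ligase encoded by MYLIP, and switch on fatty acid synthesis through SREBF1. The pathway is best studied in macrophages, liver and intestine, and it also limits proliferation in lymphocytes.

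All 7 members passed the filter on low counts and stood among 16782 tested genes. Levels are CPM, counts relative to library size after TMM scaling, summed over the listed transcripts of a gene. The libraries held 50627690 to 72039748 transcript counts, and 3 counts corresponded to 0.0415 to 0.0593 CPM. Except for NR1H3, the transcripts of a member carried nearly the same reads, so a sum repeats reads. ABCG1, with 6 listed transcripts, rested on 49 to 195 reads per library in its most counted transcript, RXRA in U266 on 7 to 24, and every other member on 67 or more. All 9 plasma cell markers exceeded 1 CPM in every group. Markers of macrophages, a cell type rich in LXR targets, summed to 6.45 to 10.03 CPM over 10 genes in U266 and to 39.4 to 47.7 in MM.1S, with MRC1 at 0 in all MM.1S libraries. In MM.1S that sum lay mostly in CD68, a lysosomal protein gene (24.6 ± 2.06 CPM under DMSO and 24.8 ± 1.09 with IT848), and SPI1, which encodes PU.1 (16.6 ± 1.15 and 20.9 ± 1.07). The 6 stromal markers summed to 28.1 to 32.9 CPM under DMSO and 35.5 to 43.6 with IT848 in U266, and to 15.9 to 20.4 and 23.4 to 29.6 in MM.1S. The sum was thus higher with IT848 in each line, with no overlap, and COL1A1, a fibrillar collagen gene, held the largest part (for U266 16.6 ± 1.59 and 20.4 ± 2.37 CPM, for MM.1S 6.62 ± 0.86 and 9.28 ± 1.62). The part of these markers in the results was not tested. A pair of libraries held reads of the other line. Genes of the other line were those high in all its libraries and below 0.05 CPM in the DMSO libraries of the line examined. For MM.1S, DMSO replicate 2 was left out of that rule. In IT848 replicate 1 of U266 these genes reached 0.876% of their MM.1S level. In DMSO replicate 2 of MM.1S the converse was 0.451%. The other libraries gave 0.0199 to 0.1000%, where the rule itself kept the DMSO values low. Without these 2 libraries every call among the members stayed as given below.

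Promoters are shown for the 3 members that were lower under IT848 in MM.1S and have an entry in the RefSeq table (build GRCh38.p14), and for NR1H2, whose DMSO libraries overlapped between the lines. The table held 10 promoters for 6 members. ABCG1 had no entry. Each line gives the 250 bases before the annotated start, at chr9:104928156-104928405 (minus strand) for ABCA1, chr17:17836987-17837236 (minus strand) for SREBF1, chr6:16128836-16129085 (plus strand) for MYLIP and chr19:50376207-50376456 (plus strand) for NR1H2. Capitals mark GC boxes (GGGCGG on either strand), which are the only capitals in SREBF1, MYLIP and NR1H2. In ABCA1 the capitals are, in order, a pair of GC boxes, an E-box (CACGTG), another GC box, an LXR-type repeat read on the opposite strand and a TATA box (TATAAA).
ABCA1: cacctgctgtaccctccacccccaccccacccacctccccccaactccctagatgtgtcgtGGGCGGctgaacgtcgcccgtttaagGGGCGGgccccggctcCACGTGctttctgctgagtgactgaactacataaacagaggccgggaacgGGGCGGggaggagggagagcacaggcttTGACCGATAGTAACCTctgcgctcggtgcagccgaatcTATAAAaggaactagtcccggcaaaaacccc
SREBF1: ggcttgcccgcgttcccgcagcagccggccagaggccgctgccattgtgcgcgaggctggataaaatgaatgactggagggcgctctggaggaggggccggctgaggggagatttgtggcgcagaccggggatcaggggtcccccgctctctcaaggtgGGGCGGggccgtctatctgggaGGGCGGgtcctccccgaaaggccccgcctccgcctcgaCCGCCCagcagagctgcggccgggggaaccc
MYLIP: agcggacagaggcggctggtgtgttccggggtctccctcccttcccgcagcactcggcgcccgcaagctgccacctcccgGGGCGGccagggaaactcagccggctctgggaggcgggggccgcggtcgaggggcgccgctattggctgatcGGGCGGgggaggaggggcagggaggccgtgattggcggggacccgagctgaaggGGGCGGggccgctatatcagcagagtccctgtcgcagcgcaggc
NR1H2: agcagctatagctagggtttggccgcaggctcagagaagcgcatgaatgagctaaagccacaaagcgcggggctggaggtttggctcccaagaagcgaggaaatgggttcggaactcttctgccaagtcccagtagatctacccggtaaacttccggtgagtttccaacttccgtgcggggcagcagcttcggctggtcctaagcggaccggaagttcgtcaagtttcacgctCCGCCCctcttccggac

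An LXR-RXR pair is known to prefer a direct repeat of a hexamer with 4 bases between its copies. A repeat was built from any of the hexamer AGGTCA, the hexamer GGGTCA, the hexamer AGTTCA and the hexamer GGTTCA. It was searched on both strands from 250 bases before to 50 after each start. Such a repeat was present in 0.0854% of 35116 promoters and in none of the 10 entries of 6 members. With up to 1 mismatch to AGGTCA allowed in each hexamer, a form chosen after the sequences were seen, 1.38% of promoters held one. Among the members this was the ABCA1 promoter alone, with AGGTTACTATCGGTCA on the opposite strand between positions −69 and −54, where position 0 is the first transcribed base. The E-box of ABCA1 lay at −147 to −142 and its TATA box at −31 to −26; the same motifs were found in 7.26% and 11.5% of all promoters. GC boxes were found in 45.0% of all promoters. These matches describe letters, and binding was not measured. ABCG1 could not be searched, and bases farther from a start were not searched for any member. SREBF1 has separate start sites for its forms, and the start searched was not assigned to a form.

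On a scale per transcript length, the deposited TPM of the most counted transcript, NR1H2 was the highest member in all 4 groups, at 26.7 ± 1.86 TPM in U266 under DMSO and 30.4 ± 1.09 in MM.1S (SD, n = 3 here and below). In U266 the order below it was NR1H3 at 10.2 ± 0.66, ABCA1 at 3.41 ± 0.07, MYLIP at 3.18 ± 0.07, SREBF1 at 1.95 ± 0.18, ABCG1 at 0.952 ± 0.072 and RXRA at 0.0726 ± 0.0260 TPM. No neighbours in that order overlapped between libraries. In MM.1S the order was SREBF1 at 16.8 ± 1.05, MYLIP at 7.20 ± 0.46, RXRA at 4.37 ± 0.38, NR1H3 at 4.25 ± 0.29, ABCG1 at 2.12 ± 0.18 and ABCA1 at 0.554 ± 0.034 TPM. RXRA and NR1H3 overlapped there, at 3.94 to 4.65 and 4.08 to 4.59 TPM, and the other neighbours did not. ABCA1 thus stood below the LXR genes alone in U266 and last in MM.1S, whereas RXRA stood last in U266.

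**Figure D1:**
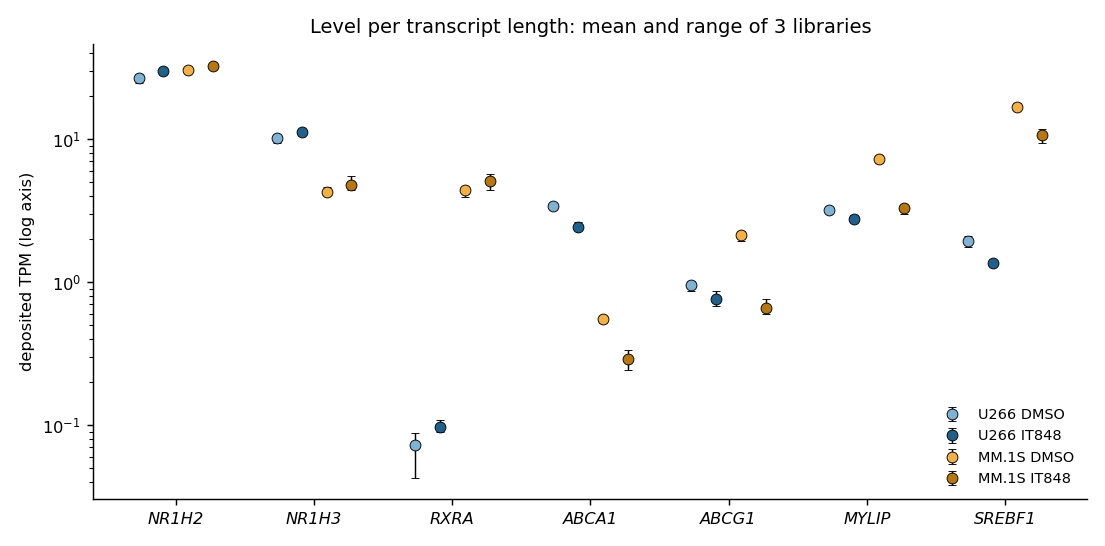
Level of each member per transcript length (y axis, deposited TPM of the most counted transcript, log axis) in the 4 groups; points are means and bars the range of 3 libraries. NR1H2 lies highest in each group, RXRA lowest in U266 and ABCA1 lowest in MM.1S.

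Under DMSO, 6 of the 7 members differed between the lines by edgeR's quasi-likelihood test at an adjusted p below 0.05, 4 higher in MM.1S and 2 lower. The lines differ widely: 82.6% of all tested genes were called in this comparison, 40.6% higher and 42.1% lower in MM.1S, so the share of members called is close to the background. ABCG1 is among the 4, and its difference rests on MM.1S libraries used in choosing the set. With IT848 in U266, 2 of the 7 members were called, both lower, against 9.01% of all genes (4.03% higher and 4.98% lower). In MM.1S all 7 passed the same threshold, 3 higher and 4 lower, where 38.3% of all genes did (18.7% higher and 19.6% lower); nothing is read from this count, as that contrast chose the set. The DMSO libraries serve both the comparison of the lines and that of the treatment, so the results of a gene share libraries.

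**Figure D2:**
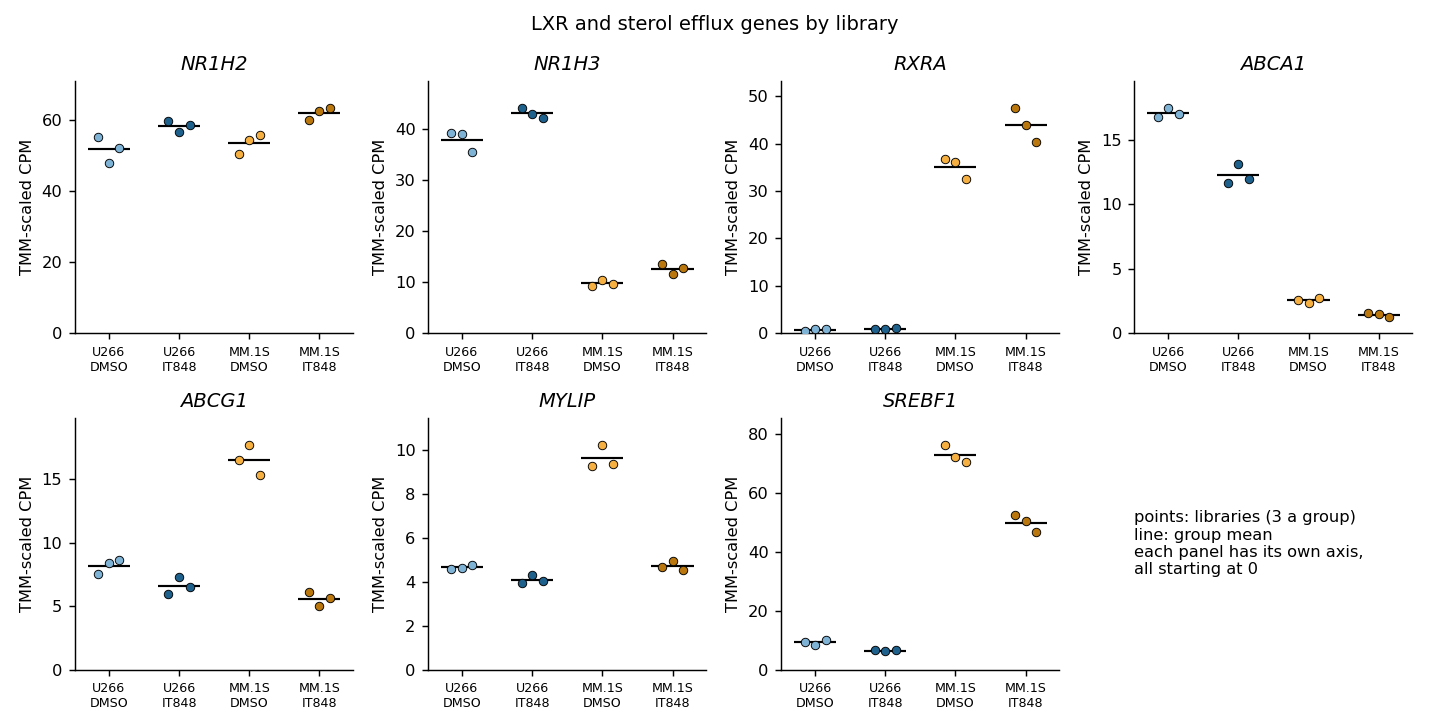
Level of each member in each of the 12 libraries (y axis, TMM-scaled CPM, own scale per panel starting at 0); points are libraries and lines group means. RXRA is near 0 in all U266 libraries, and ABCG1 is above 15 CPM in the MM.1S DMSO libraries alone.

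NR1H2, which encodes LXRβ, the receptor found in most tissues, was measured at 55.2, 48.0 and 52.1 CPM in U266 under DMSO and at 59.6, 56.6 and 58.6 with IT848. In MM.1S it was at 50.3, 54.3 and 55.6 CPM under DMSO and at 59.8, 62.5 and 63.3 with IT848. The treated libraries lay above the controls in each line, while the DMSO libraries of the lines overlapped. The log2 fold change was 0.17 ± 0.06 (SE) in U266, which did not pass (adjusted p 0.0760), and 0.21 ± 0.06 in MM.1S. Between the lines the difference was 0.05 ± 0.06 on the log2 scale (adjusted p 0.452), with an interval of 2 SE from −0.07 to 0.16.

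NR1H3 encodes LXRα, the form induced in macrophages and liver. It was measured at 39.1, 38.9 and 35.4 CPM in U266 under DMSO and at 44.0, 42.9 and 42.1 with IT848, and in MM.1S at 9.28, 10.3 and 9.67 and at 13.4, 11.6 and 12.8. All U266 libraries were above all MM.1S libraries, and treated libraries were above controls in each line. The gene was 3.88-fold lower in MM.1S under DMSO (log2 −1.96 ± 0.07, adjusted p 6.2e-13). The response was 0.19 ± 0.06 in U266 (adjusted p 0.0754, not called) and 0.37 ± 0.07 in MM.1S.

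The NR1H3 level is uncertain where the gene overlaps a neighbour. Of its 5 listed transcripts, NM_001251934 and NM_001251935 overlap 189 exon bases of ACP2, a lysosomal phosphatase gene on the opposite strand, in the GENCODE annotation (version 29), and the other 3 transcripts overlap none. The strand setting of the count is not given in the sources used here, so reads of the 2 genes cannot be told apart in that stretch. The reads that NM_001251934 had beyond those of NM_005693 came to 2.84 ± 0.41 CPM in U266 under DMSO, 2.78 ± 0.23 with IT848, 2.67 ± 0.22 in MM.1S under DMSO and 2.98 ± 0.37 with IT848 (SD, n = 3). They were thus nearly level across the groups, as was ACP2 at 29.9 ± 1.07, 27.8 ± 0.35, 29.1 ± 0.58 and 28.7 ± 3.06 CPM. NM_005693 itself was at 6.45 ± 0.28 and 7.51 ± 0.27 CPM in U266 and at 0.871 ± 0.023 and 1.32 ± 0.14 in MM.1S.

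With NR1H3 counted by NM_005693 alone, a choice made after the data were seen, the difference between the lines was larger. It came to −2.89 ± 0.11 on the log2 scale (adjusted p 2.0e-12). The response was then 0.22 ± 0.08 in U266 (adjusted p 0.143) and 0.59 ± 0.13 in MM.1S. On the scale per length, NM_005693 stood under DMSO at 6.995 ± 0.265 TPM in U266 and at 1.04 ± 0.03 in MM.1S, so by this transcript NR1H3 lay below ABCG1 in the MM.1S order.

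**Figure D3:**
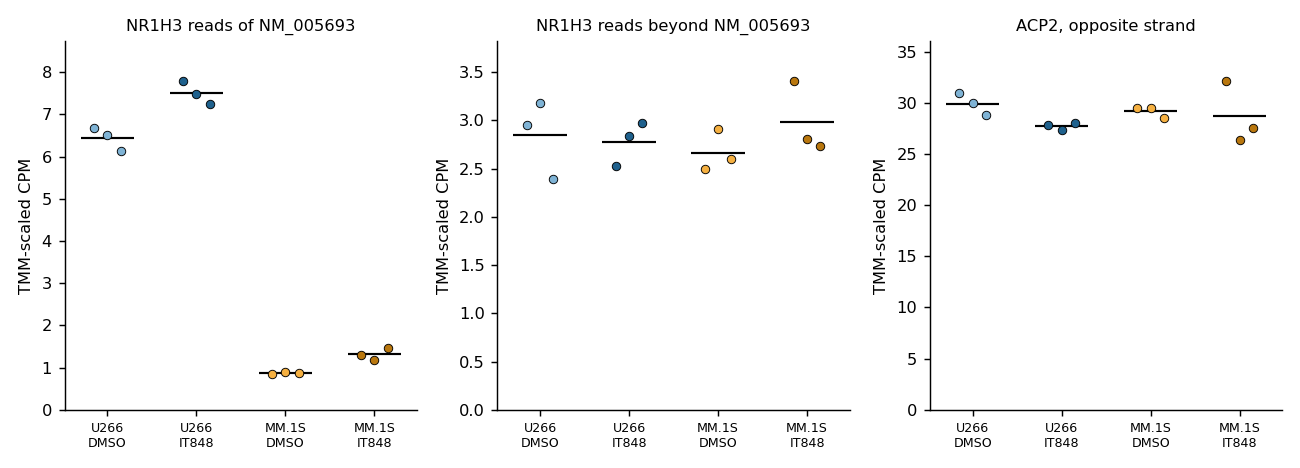
TMM-scaled CPM (y axis, from 0, own scale per panel) of NR1H3 reads in NM_005693, of further reads in NM_001251934, and of the opposite-strand gene ACP2; points are libraries and lines group means. The first differs between the lines, at 6.45 and 0.871 CPM under DMSO, whereas the other panels stay nearly level across the groups.

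RXRA encodes the RXR partner that LXR shares with many other nuclear receptors. In U266 it was at 0.362, 0.772 and 0.766 CPM under DMSO and at 0.788, 0.808 and 0.982 with IT848. In MM.1S it was at 36.6, 36.2 and 32.6 CPM and at 47.5, 44.0 and 40.3. The gene was below 1 CPM in every U266 library and 54.5-fold higher in MM.1S under DMSO (log2 5.77 ± 0.15, adjusted p 3.5e-14).

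The RXRA response was 0.43 ± 0.23 in U266 (adjusted p 0.324, not called) and 0.32 ± 0.09 in MM.1S. In U266 it was 0.17 ± 0.18 without DMSO replicate 1, and 0.346 of the 0.788 CPM in IT848 replicate 1 equalled what that library's share of MM.1S reads would bring. The MM.1S value was 0.27 ± 0.10 without DMSO replicate 3. Of the other RXR genes, RXRB was listed at 0 to 0.0277 CPM in U266 and at 0.0527 to 0.636 in MM.1S. SLC39A7, HSD17B8 and RING1, which lie beside it, were listed at 0 in all 12 libraries, so the RXRB values were not read as its level. RXRG had at most 0.134 CPM in any library and was not tested.

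ABCA1 moves cholesterol and phospholipid to lipid-free apolipoprotein A-I, the first step in forming high-density lipoprotein. In U266 it was at 16.8, 17.5 and 17.0 CPM under DMSO and at 11.6, 13.2 and 12.003 with IT848. In MM.1S it was at 2.55, 2.33 and 2.70 CPM and at 1.57, 1.47 and 1.27. Controls exceeded treated libraries in each line, and the lines were far apart. ABCA1 fell with IT848 in U266 by 0.48 ± 0.07 on the log2 scale (adjusted p 6.1e-04), and the difference in MM.1S was −0.81 ± 0.11. Under DMSO it was 6.74-fold lower in MM.1S than in U266 (log2 −2.75 ± 0.09, adjusted p 2.6e-13).

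ABCG1 exports cholesterol to formed high-density lipoprotein particles. It was at 7.50, 8.37 and 8.62 CPM in U266 under DMSO and at 5.94, 7.32 and 6.47 with IT848. In MM.1S it was at 16.5, 17.7 and 15.3 CPM under DMSO and at 6.15, 5.03 and 5.62 with IT848. MM.1S controls were thus the highest libraries of all, and treated MM.1S libraries lay in or below the range of treated U266 libraries. The MM.1S response, by which the set was chosen, was −1.56 ± 0.10 on the log2 scale, a 2.95-fold lower level. In U266 treated and control libraries did not overlap either, but the response was −0.31 ± 0.10 and did not pass (adjusted p 0.0641). Counted by its most counted transcript alone, which repeats no reads, ABCG1 gave −0.32 ± 0.15 in U266 (adjusted p 0.209) and −1.56 ± 0.14 in MM.1S. Under DMSO the gene was 2.02-fold higher in MM.1S (log2 1.01 ± 0.09), the opposite order to ABCA1. This value rests on the MM.1S DMSO libraries that also entered the choice of the set, and is a description.

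MYLIP encodes IDOL, a ubiquitin ligase that marks lipoprotein receptors for degradation. It was at 4.58, 4.65 and 4.74 CPM in U266 under DMSO and at 3.92, 4.30 and 4.02 with IT848. In MM.1S it was at 9.24, 10.2 and 9.36 CPM and at 4.68, 4.95 and 4.54. Treated MM.1S libraries thus overlapped the untreated U266 libraries. The response was −0.19 ± 0.08 in U266 (adjusted p 0.199, not called) and −1.02 ± 0.08 in MM.1S, where the level was 2.03-fold lower. Under DMSO MYLIP was 2.06-fold higher in MM.1S (log2 1.04 ± 0.08, adjusted p 7.7e-09).

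SREBF1 gives rise to SREBP-1a and SREBP-1c, activators of fatty acid and sterol genes, from separate start sites, and LXR is known to raise the second form. In the tables its 2 transcripts held nearly the same counts, 12186 and 12192 over all libraries. Which form each of them encodes was not examined, so no level is given for either form. SREBF1 was at 9.49, 8.37 and 9.99 CPM in U266 under DMSO and at 6.61, 6.29 and 6.64 with IT848. In MM.1S it was at 76.4, 72.1 and 70.7 CPM and at 52.5, 50.5 and 46.8. No groups overlapped. The gene fell with IT848 in U266 by 0.51 ± 0.08 on the log2 scale (adjusted p 4.5e-04), and the difference in MM.1S was −0.55 ± 0.06. Under DMSO it was 7.87-fold higher in MM.1S (log2 2.98 ± 0.07, adjusted p 1.1e-14).

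The responses of the lines were also set side by side. For SREBF1, NR1H2 and RXRA the response in MM.1S minus that in U266 was −0.04 ± 0.10, 0.04 ± 0.08 and −0.11 ± 0.25 on the log2 scale, each within 1 SE of 0. For ABCG1 and MYLIP it was −1.25 ± 0.14 and −0.83 ± 0.11, and for ABCA1 −0.33 ± 0.13. NR1H3 gave 0.19 ± 0.09, and 0.37 ± 0.16 by NM_005693 alone. These differences contain the contrast that chose the set and carry no test. The receptor genes had positive and the 4 target genes negative estimates in each line, of which ABCA1 and SREBF1 alone passed the test in U266. RNA of whole cultures does not separate a change in all cells from a change in the share of cells with the transcript.

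**Figure D4:**
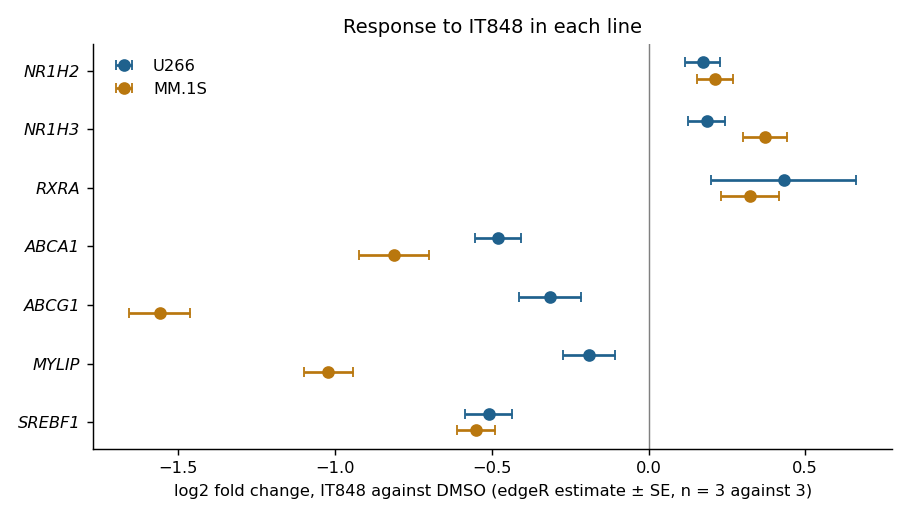
Log2 fold change of each member, IT848 against DMSO (x axis, edgeR estimate with bars of 1 SE, 3 against 3 libraries), in U266 and MM.1S. The lines differ most for ABCG1 (−0.31 and −1.56) and MYLIP (−0.19 and −1.02), and least for SREBF1 and NR1H2.

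Further genes of the pathway were taken from 7 lists of 133 genes, of which 105 were tested. In U266, 7 of these rose and 15 fell with IT848, 21.0% of those tested against 9.01% of all genes, with a median of −0.07 on the log2 scale against 0.01 for all genes. With both libraries that carried other-line reads left out, 12 were called, 11.3% of those tested, where 5.46% of all genes were. The count ranged from 13 to 17 when single libraries were left out. Over all genes, 454 to 566 then rose and 532 to 698 fell, against 676 and 836 with every library. The pathway count was 14 without DMSO replicate 1, IT848 replicate 1 or IT848 replicate 2 and 13 without DMSO replicate 3. In MM.1S 19 rose and 28 fell, 44.8% against 38.3% of all genes, with a median of −0.05 against −0.01. Under DMSO 58 were higher and 35 lower in MM.1S, 88.6% against 82.6% of all genes. The 58 include RXRB, whose values were not read as its level. Counts of single lists below are to be read beside these shares of all genes.

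Among 12 other LXR targets tested, 4 fell in U266: FASN, the fatty acid synthase gene (−0.31 ± 0.07), SCD, a fatty acid desaturase gene (−0.23 ± 0.05), LPCAT3, a phospholipid remodelling enzyme gene (−0.21 ± 0.06), and PLTP, a phospholipid transfer protein gene (−0.18 ± 0.05). Adjusted p by the edgeR test were 0.0122, 0.0064, 0.0477 and 0.0431 in that order, those of LPCAT3 and PLTP close to the threshold. For FASN it was 0.0447 without the 2 libraries with reads of the other line. The list median was −0.12. In MM.1S 4 fell and 1 rose, with a median of −0.19. The falls included MERTK, a receptor for apoptotic cells (−0.68 ± 0.10), and the rise was that of SMPDL3A, a phosphodiesterase gene, from 12.9 ± 1.18 to 18.3 ± 1.85 CPM. Under DMSO all 12 differed between the lines, 8 higher and 4 lower in MM.1S, in a comparison that called 82.6% of all tested genes. CETP, the cholesteryl ester transfer protein gene, was at 1.01 ± 0.33 CPM in U266 against 0.0587 ± 0.0733 in MM.1S, and SMPDL3A at 0.0121 ± 0.0209 in U266.

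Of 18 genes of SREBP processing and SREBP-1 action, 3 rose and 2 fell in U266 and 3 rose and 5 fell in MM.1S. ME1, the malic enzyme gene, rose by 0.66 ± 0.05 in U266 and by 1.37 ± 0.05 in MM.1S. FADS2, a desaturase gene, fell by 0.31 ± 0.05 in U266, and ACACA, which encodes acetyl-CoA carboxylase, by 0.47 ± 0.05 in MM.1S. FADS2 was also far lower in MM.1S under DMSO (135.7 ± 4.06 CPM in U266 and 4.60 ± 0.31 in MM.1S).

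Of 24 genes of sterol uptake and trafficking, 3 rose and 2 fell in U266 and 8 rose and 2 fell in MM.1S, with medians of 0.04 and 0.11. VLDLR, a lipoprotein receptor gene, rose by 0.27 ± 0.05 in U266. LRP8, another lipoprotein receptor gene, rose by 0.50 ± 0.06 in MM.1S, and STARD5, a sterol carrier gene, fell by 0.35 ± 0.06. Between the lines VLDLR was lower in MM.1S (log2 −2.42 ± 0.06), and OSBPL5, an oxysterol-binding protein gene, was higher, at 13.0 ± 1.305 CPM against 0.0669 ± 0.0275 in U266.

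Among 19 coregulators of LXR, 1 rose and 2 fell in U266 and 3 rose and 9 fell in MM.1S (median −0.19). TBL1X, a corepressor subunit gene, rose by 0.53 ± 0.04 in U266, and the coactivator gene NCOA3 fell by 0.29 ± 0.06. In MM.1S PPARGC1A, the coactivator gene PGC-1α, rose by 0.22 ± 0.08, a rise not called without the 2 libraries (adjusted p 0.0827). Under DMSO PPARGC1A was higher (log2 2.13 ± 0.09) and NCOA1, a coactivator gene, lower (log2 −0.74 ± 0.05) in MM.1S.

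Of 9 enzymes of LXR ligand supply, 2 fell in U266, and 3 rose and 1 fell in MM.1S. There SC5D, a sterol desaturase gene, rose by 0.55 ± 0.06 and DHCR7, the last reductase of cholesterol synthesis, fell by 0.20 ± 0.05. All 9 differed between the lines under DMSO, where 82.6% of all tested genes did. HSD3B7, a bile acid enzyme gene, stood at 3.40 ± 0.66 CPM in U266 against 0.647 ± 0.117 in MM.1S, and CYP46A1, the cholesterol 24-hydroxylase gene, at 0.0053 ± 0.0092 and 0.205 ± 0.133.

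Of 12 genes of the RXR family and its partners, RXRB among them, RARG, a retinoic acid receptor gene, was called in U266 (−0.36 ± 0.08). In MM.1S 2 fell, including VDR, the vitamin D receptor gene, by 0.55 ± 0.09. Under DMSO VDR was at 0.669 ± 0.071 CPM in U266 against 119.8 ± 7.20 in MM.1S, a contrast of the same direction as that of RXRA. NR1I2, the pregnane X receptor gene, was at 2.48 ± 0.15 CPM in U266 against 0.414 ± 0.174 in MM.1S. Of 11 other lipid ABC transporters and acceptors, 2 fell in U266, including ABCA3, a surfactant lipid transporter gene (−0.42 ± 0.08). In MM.1S 1 rose, ABCD4, a lysosomal transporter gene, by 0.35 ± 0.09, and 5 fell, among them ABCA10 from 0.983 ± 0.200 to 0.552 ± 0.072 CPM, which was not called without the 2 libraries (adjusted p 0.114). ABCA3 was lower in MM.1S under DMSO (log2 −3.41 ± 0.11), and ABCA10 was at 0.0585 ± 0.0597 CPM in U266.

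**Figure D5:**
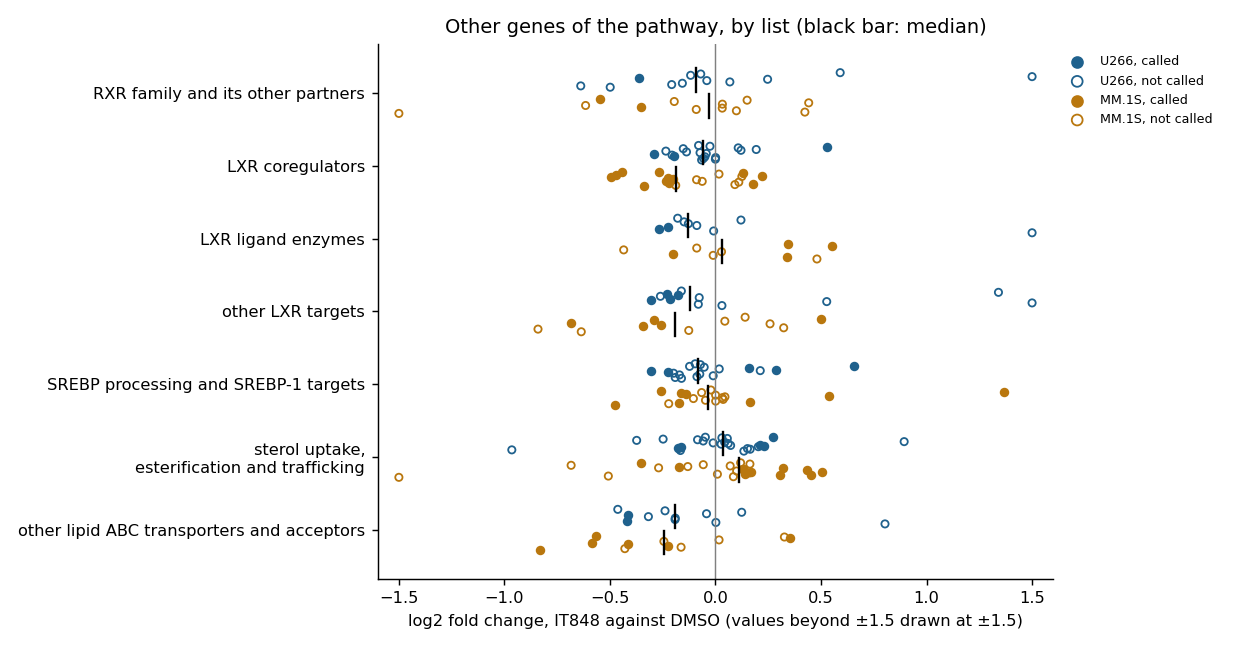
Log2 fold change with IT848 (x axis) of each tested gene of the 7 pathway lists (rows) in U266 (blue) and MM.1S (orange); filled points were called by edgeR at an adjusted p below 0.05, and black bars are medians. ME1 is the point farthest to the right among those called, at 1.37 in MM.1S; 5 estimates beyond the axis, none called, are drawn at its ends.

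The genes whose levels were most like those of ABCG1 over the 12 libraries were BRIP1, a DNA repair helicase gene (Pearson's r 0.981 of log2 CPM), MAN1A1, a glycan-trimming mannosidase gene (0.978), PTCD3, a mitochondrial ribosome gene (0.977), MSH6, a mismatch repair gene (0.974), and MYO5A, a myosin gene (0.971), among 9104 genes searched. Like ABCG1, they were highest in MM.1S under DMSO and lowest in MM.1S with IT848: BRIP1, for example, had means of 20.4 and 18.6 CPM in U266 and 26.4 and 16.5 in MM.1S. Those most like ABCA1 were PTPN22, a lymphocyte phosphatase gene (0.999), FOXN3, a forkhead factor gene (0.998), MLEC (0.998), SH3PXD2A (0.998) and CCR2, a chemokine receptor gene (0.997). CCR2 had means of 119 and 76.9 CPM in U266 and 11.4 and 6.29 in MM.1S. These coefficients are descriptions: the points share 2 lines and 2 treatments, and each line's libraries cluster together.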

How the data were processed

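RNA sequencing tables of 12 libraries were used. Per the submitters' processing notes, the tools were featureCounts (Subread 1.5.2), STAR 2.5.2b, Trimmomatic 0.36 and bcl2fastq, with the build hg19. The handling of strand and of multi-mapping reads is not given in the sources used here. The 51780 RefSeq transcripts of a deposited table each have the count of reads the authors assigned, the FPKM derived from it by the authors and the deposited TPM. A read was counted for each transcript it overlapped.

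Counts were summed per symbol and tested with edgeR 4.0.16 by the quasi-likelihood F test (robust, TMM, all 12 libraries, a mean per group). Genes were filtered by filterByExpr with a minimum count of 10. The fit was also run on simulated counts. These held no difference between the lines under DMSO and no reads repeated over transcripts, so that run does not cover either. P-values were adjusted by Benjamini-Hochberg over 16782 genes and called below 0.05. Relative transcript length was taken as the ratio of count to TPM, and TPM served for levels between genes. Depth ranged from 22887470 to 32913398 counts with 1 transcript per gene; floors cover counting error only. No coordinates were converted between builds. The alternatives were DESeq2 1.42.0, other scalings and filters, single transcripts, a length trend, fewer libraries and a block.

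All members were named. In each list and comparison, the called gene of each direction with the largest fold change and no overlap between groups was named, with the 5 genes most correlated with ABCG1 and with ABCA1 among those above a mean log2 CPM of 3. SCD, LPCAT3, PLTP and RXRB and its neighbours were added after their values were seen. Some genes that this rule selects are not reported here. The members and lists were chosen with earlier results of these data known.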

Additional observations from a re-analysis of the deposited data

Results flagged for a closer look

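Pathway genes that the naming rule picked for a response to IT848 were examined for a difference of that response between the lines. Of those reported, 8 passed the interaction test of the edgeR fit, adjusted over all genes. The rule picked them by a large response in a line, which this difference contains. Their p-values are therefore not free of that choice, and their number is a description. The differences are given as MM.1S minus U266 on the log2 scale. Over all 16782 tested genes, 1424 were called above 0 and 1500 below. NCOA1, named for the comparison of the lines, also passed, at 0.31 ± 0.07 (adjusted p 0.0089). It did not pass with both libraries that carried other-line reads left out (adjusted p 0.0563). ME1, the malic enzyme gene, rose in both lines and by 0.71 ± 0.07 more in MM.1S (adjusted p 8.4e-06). The difference was −0.40 ± 0.06 for the corepressor gene TBL1X (4.6e-04), with responses of 0.53 in U266 and 0.13 in MM.1S. It was 0.43 ± 0.09 for the sterol desaturase gene SC5D (0.0058), with responses of 0.12 and 0.55, and −0.31 ± 0.07 for ACACA (0.0064), with responses of −0.16 and −0.47.

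For VDR the difference was −1.14 ± 0.27 (adjusted p 0.0106), with responses of 0.59 ± 0.25 in U266, where the level was near 1 CPM, and −0.55 ± 0.09 in MM.1S. With both libraries that carried other-line reads left out, the U266 response of VDR was 0.22 ± 0.18 and the difference −0.76 ± 0.19 (adjusted p 0.0275). The difference was 0.34 ± 0.09 for FADS2 (0.0179), 0.39 ± 0.12 for RARG (0.0360) and −0.42 ± 0.14 for MERTK (0.0449). Without the 2 libraries those of FADS2 and MERTK no longer passed, with adjusted p of 0.0716 and 0.0633, and that of RARG did (0.0187).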

How the results depend on the processing

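The count of members called in U266 was 2 by the fit given above. It was 5 when only the U266 libraries were fitted and 5 with the replicate block, where ABCG1, NR1H2 and NR1H3 were added. More genes were called over all genes as well. The fit given above had 676 higher and 836 lower of 16782 tested. There were 956 and 1117 of 15609 with only the U266 libraries, and 968 and 1187 of 16782 with the block. The replicate numbers pair no cultures by the labels, and same-numbered libraries correlated at 0.270, 0.223 and −0.067 in U266 and at 0.510, −0.148 and 0.510 in MM.1S over 9104 genes. Leaving out single libraries gave 2 to 3 members in U266 and 6 between the lines. Over all genes, 454 to 566 were then higher and 532 to 698 lower with IT848 in U266, of 17001 to 17064 tested. Between the lines 6568 to 6725 were higher and 6911 to 6993 lower in MM.1S, of 17035 to 17070. ABCG1 in U266 also passed by DESeq2 (−0.33, adjusted p 0.0288) and without IT848 replicate 2 (−0.39, adjusted p 0.0385), and NR1H2 with the length trend taken out (0.17, adjusted p 0.0408). The difference of NR1H2 between the lines, which was not called, changed sign with upper-quartile factors (−0.0119) and without U266 DMSO replicate 2 (−0.0125; range −0.0125 to 0.0896 over single libraries left out). The count of pathway genes in U266, 22 in all, was 12 without the 2 libraries with reads of the other line. It was 13 to 17 without single libraries. Fewer genes were called over all genes too in each of these fits. The cause was not tested, though fewer libraries were fitted. The falls of ABCA1 and SREBF1 in U266 passed under every alternative run. Depth limits ABCG1, with few reads per transcript, and RXRA in U266.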
